A study of Mus musculus with 6 samples.

Results

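The interferon genes described here are 39 mouse genes of the interferon pathway: the receptor chains, the kinase *Tyk2*, STAT and IRF factors, cytoplasmic RNA sensors and genes that interferon induces. They were taken by symbol from the 22322 genes counted by RNA-seq in the arcuate nucleus (ARC) of the hypothalamus of male mice. All 39 were found, and 37 had enough reads to be tested. The counts of *Oas1a* and *Ifi44* were too low. No member differed between a high-fat diet (HFD) and a normal-chow diet (NCD) once p-values were adjusted. In 29 of the 37 the estimate was higher in HFD, *Ifngr2* at 0.00 included, with a median log2 fold change of 0.18 against 0.003 over all genes tested. The median was 0.041 without HFD3 (23 estimates above 0 and 15 below) and 0.072 without NCD2 (22 above and 16 below).

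Interferons are secreted proteins, and those of type I are released by cells that sense viral nucleic acid. Type I interferons bind a receptor made of IFNAR1 and IFNAR2, and interferon gamma binds one made of IFNGR1 and IFNGR2. Janus kinases on these receptors, TYK2 among them, phosphorylate STAT proteins. A complex that contains STAT2 and IRF9 binds the interferon-stimulated response element (ISRE), and the response to interferon gamma acts through the gamma-activated site (GAS). The induced genes block viral entry, translation and assembly, and several of them encode parts of the pathway itself. In the brain, microglia, astrocytes, endothelial cells and neurons can all carry out this response.

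The study addressed how diet-induced obesity disturbs the hypothalamic control of luteinizing hormone in males. Mice were given NCD (16.5% fat) or HFD (60% fat) from an age of 4 weeks for 16 weeks, with 3 samples in each diet group, called NCD1, NCD2 and NCD3 or HFD1, HFD2 and HFD3. The ARC was cut from frozen brain sections of 20 μm by laser capture microdissection, and polyadenylated RNA was sequenced. The study's methods give C57BL/6J as its wild-type strain. The area to cut was set by where *Kiss1* neurons lie, seen in a cross of Kiss1-Cre with R26R-EYFP mice, and whether the sequenced mice carried these alleles is not stated. No agent other than the diet is given for these groups. The labels do not say whether a sample was 1 mouse or a pool, so p-values measure only the spread between these samples, which may be technical in part.

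Total counts were 15925648, 9937632 and 6882449 in NCD1, NCD2 and NCD3, and 8024664, 10479778 and 5171381 in HFD1, HFD2 and HFD3. An amount of 3 counts, taken as the detection limit, equals 0.181 CPM (counts scaled to the TMM-normalised library size) in NCD1 and 0.564 CPM in HFD3, for counting error only. The largest and the smallest library stood apart from the rest. NCD1 held the highest of the 6 values in 26.7% of all genes tested and the lowest in 25.1%, and HFD3 did so in 25% and 24.9%. Marker genes of ARC neurons were present, with 15 of 15 passing the filter on low counts and *Cartpt* the most abundant. *Kiss1*, however, had 0 counts in NCD1 and in HFD1, against 27 and 32 in NCD2 and NCD3 and 21 and 42 in HFD2 and HFD3. These tissue samples hold many cell types, so that fewer cells of a type and less RNA per cell cannot be told apart.

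The promoters show what many of the members share. The RefSeq table of gene starts (GRCm38.p6, 250 bases before to 50 after the start) held 33 of the 39. *Dhx58*, *Usp18*, *Parp9*, *Parp14*, *Ifi27* and *Rtp4* had no entry. The 4 stretches below are from members whose values are described further on. Each is written 5′ to 3′ on the strand of its gene, upstream of the annotated exons, and capitals mark every match to GAAANNGAAA, the core of the ISRE, on either strand. A match on the other strand reads TTTCNNTTTC.

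*Isg15*, chr4:156200819-156200918, minus strand: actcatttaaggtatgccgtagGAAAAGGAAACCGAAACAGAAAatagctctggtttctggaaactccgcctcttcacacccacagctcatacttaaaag

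*Bst2*, chr8:71537503-71537602, minus strand: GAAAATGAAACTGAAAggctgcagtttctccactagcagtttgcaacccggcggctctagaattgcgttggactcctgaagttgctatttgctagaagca

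*Ifit3*, chr19:34583373-34583472, plus strand: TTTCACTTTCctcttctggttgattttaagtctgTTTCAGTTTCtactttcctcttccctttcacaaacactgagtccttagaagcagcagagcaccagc

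*Ifit3b*, chr19:34607769-34607868, plus strand: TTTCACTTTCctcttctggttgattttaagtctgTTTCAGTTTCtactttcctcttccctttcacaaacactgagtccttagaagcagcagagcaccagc

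The *Isg15* stretch held 3 overlapping matches in a row, that of *Bst2* 2 overlapping ones, and those of *Ifit3* and *Ifit3b* 2 separate ones. The *Ifit3* and *Ifit3b* stretches were identical in 100 of 100 bases, although they lie at separate positions on chromosome 19.

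The ISRE core was found in the windows of 15 of the 33 members (45.5%), against 3.99% of 27025 genes with a window and 3.44% of 32851 windows. These 15 were *Stat2*, *Ifih1*, *Ddx58*, *Ifit1*, *Ifit3*, *Ifit3b*, *Ifitm2*, *Ifitm3*, *Bst2*, *Oas1a*, *Rsad2*, *Eif2ak2*, *Gbp2*, *Gbp3* and *Isg15*. The longer form GAAANNGAAACT, which contains the core, was found in 9 members (27.3%) against 0.303% of all genes. The palindromic GAS letters TTCNNNGAA were found in 9 members (27.3%) against 9.55% of all genes, among them *Ifnar1*, *Ifnar2* and *Irf1*. A match is a string of letters and not evidence of binding, and its absence says only that these letters are not in the window.

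**Figure D1:**
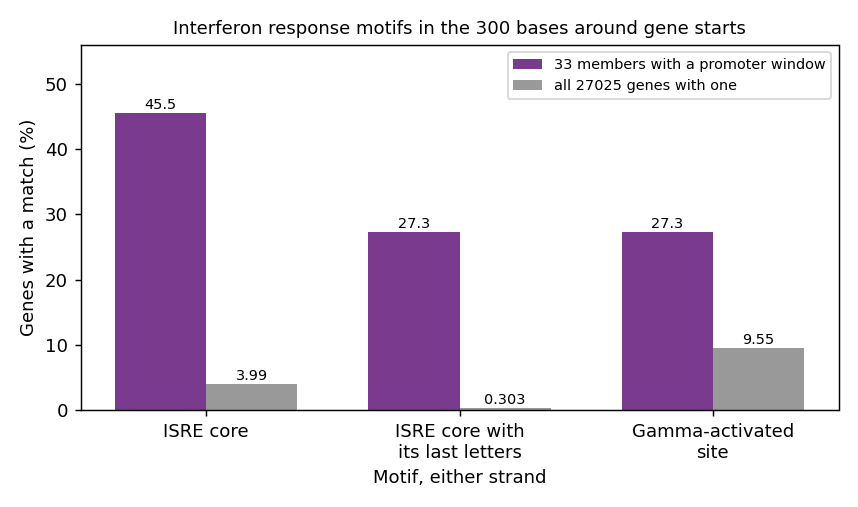
Share of genes (%) with at least 1 match to each motif on either strand in the window of 300 bases around the annotated start, for the 33 members with a window (purple bars) and for all 27025 genes with one (grey bars). The ISRE core stood in 45.5% of the members and 3.99% of all genes, and the GAS letters in 27.3% and 9.55%.

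Members lay in several loci where neighbours are family copies or share a pathway step (positions from GENCODE M21, GRCm38). *Ifnar2*, *Ifnar1* and *Ifngr2* lie with *Il10rb*, another cytokine receptor chain, within 193 kb at chr16:91372783-91565623. *Ifit2*, *Ifit3*, *Ifit3b* and *Ifit1* lie within 99.3 kb at chr19:34550694-34650009. The other groups were *Ifitm2*, *Ifitm1* and *Ifitm3* with *Irf7* (312 kb, chr7:140954837-141266481), *Gbp3* with *Gbp2* (78.0 kb, chr3:142560026-142638008), and *Parp14*, *Dtx3l* and *Parp9* (140 kb, chr16:35832874-35972605). Fold changes on the log2 scale ranged from -0.13 to 0.53 in the *Ifit* locus, from -0.15 to 0.24 in the receptor locus, from 0.10 to 0.78 in the *Gbp* locus and from -0.072 to 0.52 in the *Parp* locus. In the *Ifitm* and *Irf7* locus they ranged from 0.28 to 0.35, and from 0.042 to 0.34 without HFD3. Without that sample *Gbp3* was at -0.15 and *Parp14* at -0.049.

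Expression levels were compared between genes in FPKM, which is scaled to transcript length. *Ifi27* was the highest member with a mean of 68.0 FPKM over the 6 samples, at rank 1468 of the 22322 genes. *Ifitm3* followed with 48.6 FPKM, *Ifit3* with 20.6, *Ifitm2* with 20.5, *Ifnar2* with 19.7 and *Lgals3bp* with 18.4. The lowest members were *Ifi44* with a mean of 0.445 FPKM, *Parp14* with 0.453 and *Oas1a* with 0.49.

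None of the 37 members was called by edgeR's quasi-likelihood test with Benjamini-Hochberg adjustment over all 14188 genes, where 0.0564% of genes were called. The 95% interval of the log2 fold change held 0 for all 37. At an unadjusted p under 0.05 the count was 0 of 37, against 2.3% of all genes (1.21% higher and 1.09% lower in HFD), and DESeq2 gave 0 at both levels. The values of HFD lay wholly above those of NCD in 3 members (*Ifnar2*, *Irf1* and *Isg15*) and wholly below in 0, where 3.24% of all genes tested had each pattern. The estimate was above 0 in 29 members, set against 50.5% of all genes tested, and below 0 in 8, set against 49.5%. *Isg15*, *Gbp2* and *Bst2* exceeded 1.5-fold, 3 of 37, where 6.26% of all genes did so in either direction. Past 1.5-fold with p under 0.05 were 0 members and 1.9% of all genes.

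**Figure D2:**
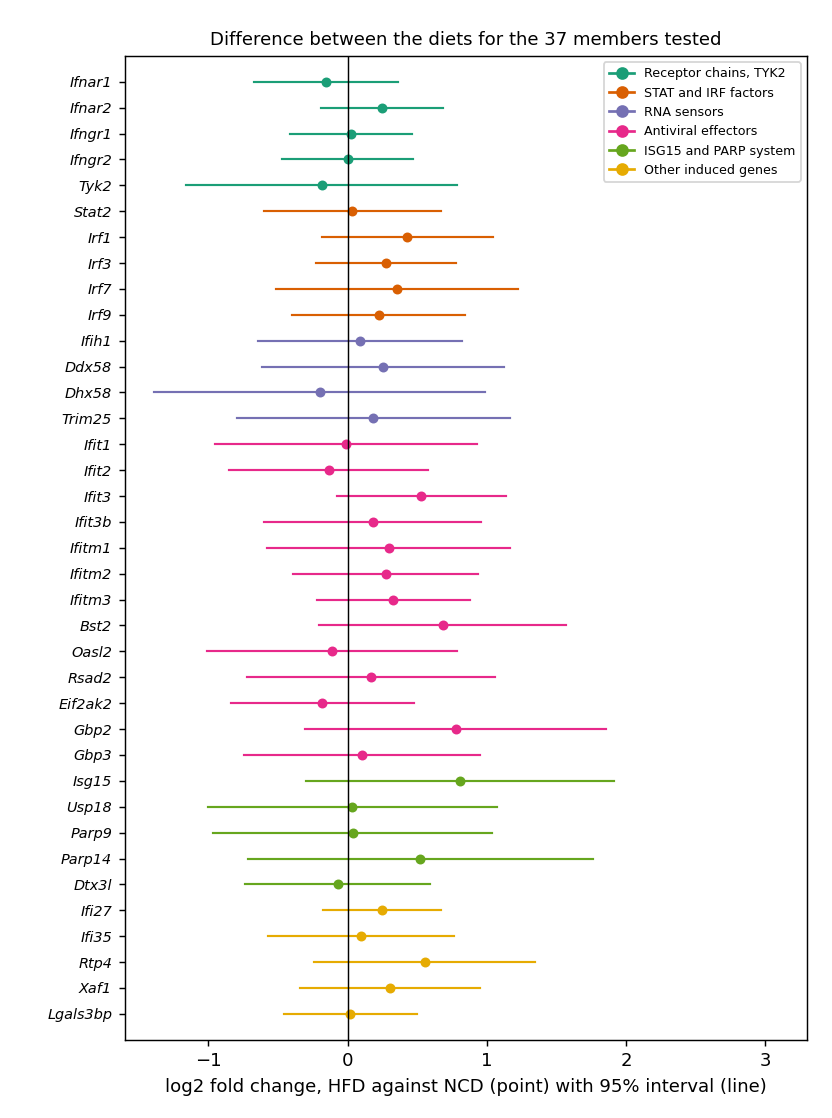
Log2 fold change of HFD against NCD for the 37 members tested (points) with 95% intervals from edgeR (lines), coloured by role, with 3 samples per group. Every interval crosses 0, and the points run from -0.20 (*Dhx58*) to 0.81 (*Isg15*).

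Among the receptor chains and TYK2, 3 of 5 estimates were above 0 (*Ifngr2* at 0.00 included) and the median was 0.00, with a range of -0.20 (without HFD2) to 0.084 (without NCD1) when 1 sample was left out. *Ifnar2*, the chain of the type I receptor that binds ligand with high affinity, had 24.0, 25.6 and 26.5 CPM in NCD1 to NCD3, and 27.0, 30.9 and 32.2 CPM in HFD1 to HFD3. All HFD samples lay above all NCD samples, although NCD3 and HFD1 differed by little. The log2 fold change was 0.24 (SE 0.202), with an adjusted p of 0.999 from edgeR's quasi-likelihood test with Benjamini-Hochberg adjustment.

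*Ifnar1*, its partner chain, had 30.5, 25.4 and 19.4 CPM in NCD and 19.3, 26.3 and 22.4 CPM in HFD. *Ifngr1*, the ligand-binding chain for interferon gamma, had 31.6, 25.04 and 27.4 CPM in NCD and 28.3, 28.6 and 28.8 CPM in HFD. *Ifngr2* had 46.4, 41.3 and 35.96 CPM in NCD and 39.3, 51.7 and 32.6 CPM in HFD. The groups overlapped in these 3 chains, with log2 fold changes of -0.15 (SE 0.238) for *Ifnar1* and 0.027 for *Ifngr1*. That of *Ifnar1* ran from -0.30 (without NCD3) to 0.001 (without NCD1) when 1 sample was left out. That of *Ifngr1* ran from -0.048 (without NCD2) to 0.11 (without NCD1). *Tyk2* ranged from 2.44 CPM in NCD2 to 7.67 CPM in NCD3, a spread within NCD wider than the range of HFD (3.23 to 6.397 CPM).

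All 5 estimates were above 0 among the STAT and IRF members, with a median log2 fold change of 0.28. Without HFD3 or without NCD2 the median was 0.12 or 0.14, with *Stat2* below 0, and without NCD1 it was 0.49. *Irf1*, a factor that interferon gamma induces and that itself switches on induced genes, had 13.1, 10.3 and 6.77 CPM in NCD and 14.0, 13.9 and 13.2 CPM in HFD. The 3 HFD values lay close together and just above NCD1, the highest control. The log2 fold change was 0.43 (SE 0.284), or 0.23 without NCD3, with an unadjusted p of 0.155 from edgeR with all samples, and the exact permutation test of 3 against 3 samples cannot give a two-sided p below 0.1.

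*Stat2* had 20.3, 10.6 and 10.8 CPM in NCD and 14.8, 13.2 and 15.2 CPM in HFD, so that NCD1 alone exceeded every HFD sample. *Irf9*, the DNA-binding partner of STAT2, had 24.1, 12.8 and 16.9 CPM in NCD and 22.4, 15.3 and 25.8 CPM in HFD. *Irf7*, the interferon-induced factor that amplifies type I interferon production, had 4.82, 2.54 and 3.76 CPM in NCD and 3.36, 4.73 and 6.397 CPM in HFD. The groups overlapped in all of them, with NCD1 the highest control for each. *Irf3*, which is present before infection and starts interferon production, had 16.5, 20.1 and 24.1 CPM in NCD and 23.1, 22.0 and 28.4 CPM in HFD. Here NCD1 was the lowest sample, unlike its place in the other IRF and STAT members.

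**Figure D3:**
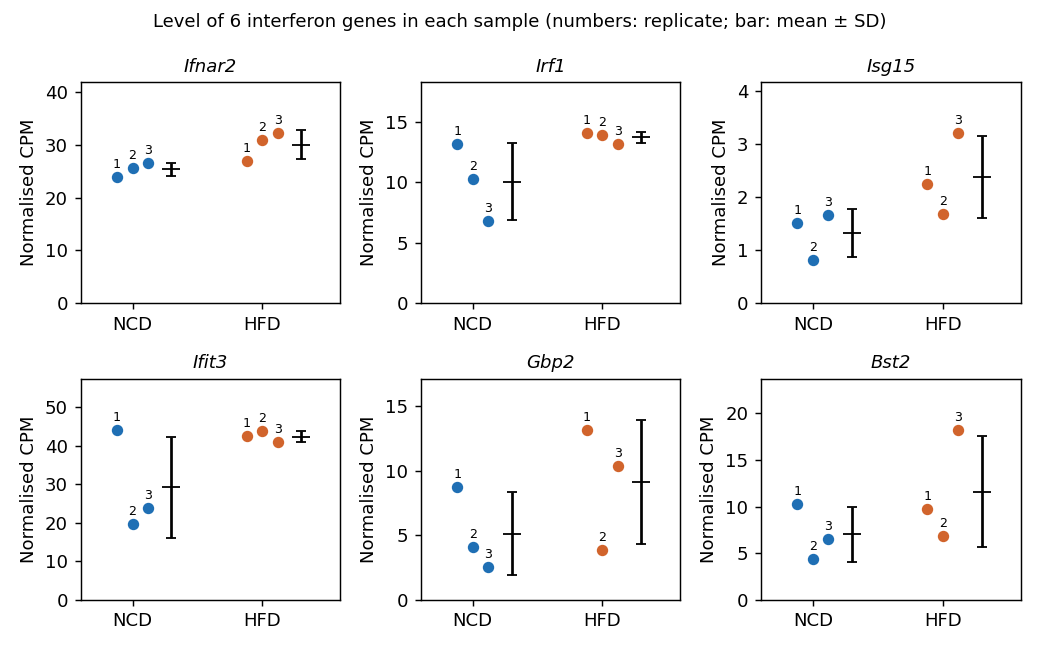
Normalised CPM of 6 members in each sample, with the replicate number beside each point and the mean ± SD (n = 3) as a bar. The HFD samples lie above all NCD samples for *Ifnar2*, *Irf1* and *Isg15*, while NCD1 reaches into the HFD range for *Ifit3*, *Gbp2* and *Bst2*.

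The RNA sensors, which recognise viral RNA in the cytoplasm, were few in reads, with 3 of 4 estimates above 0 and a median of 0.14. Without HFD3, 1 of 4 was above 0 and the median was -0.26. *Ddx58* (RIG-I) had a log2 fold change of 0.26, *Trim25*, the ubiquitin ligase that activates RIG-I, 0.19, *Ifih1* 0.088 and *Dhx58* -0.20. HFD3 was the highest sample in all 4. *Trim25* reached 11.1 CPM in HFD3 but 5.47 and 3.65 CPM in HFD1 and HFD2, below the 8.88 CPM of NCD3.

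Of the 14 antiviral effectors, 13 were tested, with 9 estimates above 0, 4 below 0 and a median of 0.18. With 1 sample left out that median ran from 0.055 (without HFD3, 8 above and 5 below) to 0.38 (without NCD1, 12 above and 1 below). *Ifit3*, which belongs to a family of proteins that bind foreign RNA and hold back its translation, had HFD values close to each other. They were 42.4, 43.8 and 40.8 CPM in HFD, against 44.1, 19.5 and 23.8 CPM in NCD. NCD2 and NCD3 lay at about the same low level, while NCD1 stood as high as the HFD samples, and the groups overlapped through that sample. For *Ifit3* the log2 fold change was 0.53 (SE 0.280, unadjusted p 0.0823 by edgeR). Without NCD1 it was 0.96 (SE 0.213), with an unadjusted p of 0.000845 and an adjusted p of 0.573 by edgeR, and without NCD2 it was 0.31.

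*Ifit3b*, the near copy of *Ifit3* shown above, had 20.5, 8.24 and 10.2 CPM in NCD and 18.8, 15.9 and 9.78 CPM in HFD. Like *Ifit3* it was high in NCD1, HFD1 and HFD2 and low in NCD2 and NCD3, but HFD3 lay with the low samples. The longest transcripts of the 2 genes agreed in 98.0% of aligned bases, and 51.2% of the stretches of 50 bases in *Ifit3* recur in another gene, so that the division of reads between them is uncertain. Summed as 1 gene, the log2 fold change was 0.43 (SE 0.285). The other family members were at -0.012 for *Ifit1* and -0.13 for *Ifit2*. Both turned with 1 sample left out, *Ifit1* from -0.47 (without HFD3) to 0.38 (without NCD1) and *Ifit2* from -0.40 (without NCD3) to 0.25 (without NCD1).

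*Ifitm3*, a membrane protein that blocks the fusion of viruses with the endosome, had 28.1, 27.3 and 31.7 CPM in NCD and 34.8, 25.04 and 50.05 CPM in HFD. *Ifitm2* had 10.2, 12.7 and 13.4 CPM in NCD and 16.4, 8.77 and 19.0 CPM in HFD. In both, HFD1 and HFD3 exceeded every control and HFD2 was the lowest of the 6 samples. The log2 fold changes were 0.33 (SE 0.254) for *Ifitm3* and 0.28 for *Ifitm2*, and 0.042 and 0.055 without HFD3. For *Ifitm2*, 48.5% of the stretches of 50 bases recur in another gene.

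*Gbp2*, a guanylate-binding GTPase that attacks the vacuoles of intracellular microbes, had 8.73, 4.07 and 2.56 CPM in NCD and 13.2, 3.85 and 10.4 CPM in HFD. HFD2 lay below NCD2, while HFD1 and HFD3 exceeded all controls. *Bst2* (tetherin), which holds budding virus at the cell surface, had 10.2, 4.38 and 6.47 CPM in NCD and 9.69, 6.80 and 18.3 CPM in HFD. Its highest value was in HFD3. Its log2 fold change was 0.68 (SE 0.409) with all samples, 0.21 without HFD3 and 1.07 without NCD1. That of *Gbp2* was 0.78 (SE 0.497), and with 1 sample left out it ran from 0.40 (without HFD1) to 1.42 (without NCD1).

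For the remaining effectors, estimates were 0.29 for *Ifitm1*, 0.17 for *Rsad2* (viperin), 0.10 for *Gbp3*, -0.11 for *Oasl2* and -0.18 for *Eif2ak2*, the kinase PKR that stops translation on binding double-stranded RNA. With 1 sample left out, *Ifitm1* reached 0.038 (without HFD1), *Rsad2* -0.22 (without HFD1), *Gbp3* -0.15 (without HFD3) and *Oasl2* 0.65 (without NCD1). *Oasl2* was highest in NCD1 at 18.4 CPM, and the other 5 samples ranged from 5.60 to 10.7 CPM. *Oas1a*, below the filter, had 14, 10 and 3 counts in NCD and 4, 10 and 9 counts in HFD.

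In the system that attaches the ubiquitin-like protein ISG15 and in the PARP group, 4 of 5 estimates were above 0, with a median of 0.036. The median was below 0 without HFD3 (-0.049), without NCD2 (-0.086) or without NCD3 (-0.022), with 2 of 5 above 0 each time, and 0.81 without NCD1. *Isg15* itself, whose promoter is printed above, had the highest estimate of all members with few reads behind it. It had 1.51, 0.814 and 1.66 CPM in NCD and 2.24, 1.68 and 3.20 CPM in HFD, from 25, 8 and 11 counts and from 18, 17 and 17 counts. The HFD samples lay above the NCD samples, HFD2 only just above NCD3. Its log2 fold change was 0.81 (SE 0.510), with a 95% interval from -0.30 to 1.92.

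*Parp14*, an ADP-ribosyltransferase, had 4.51, 1.93 and 1.35 CPM in NCD and 3.60, 1.68 and 6.77 CPM in HFD. Its log2 fold change of 0.52 became -0.049 without HFD3 and 1.21 without NCD1. *Usp18*, the protease that removes ISG15 and damps the type I receptor, was at 0.033 and *Parp9* at 0.036, both highest in NCD1, and without NCD1 they were at 0.81 and 0.66. The partner ligase of *Parp9*, *Dtx3l*, was at -0.072, and at -0.33 without HFD1 and 0.14 without HFD2.

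The remaining induced genes, 5 of 6 tested, had estimates above 0 with a median of 0.25, which was 0.13 without HFD1 (3 above and 2 below) and 0.15 without HFD3. *Ifi27*, the most abundant member, had 57.7, 60.9 and 56.3 CPM in NCD and 80.4, 69.0 and 58.3 CPM in HFD. HFD1 and HFD2 exceeded all controls, while HFD3 lay among them, and the log2 fold change was 0.25 (SE 0.195), or 0.13 without HFD1. *Rtp4*, a chaperone of membrane receptors, had 9.69, 3.87 and 4.97 CPM in NCD and 10.4, 9.27 and 7.90 CPM in HFD, again with NCD1 in the HFD range. Its log2 fold change was 0.55 (SE 0.365), and with 1 sample left out it ran from 0.31 (without NCD2) to 1.06 (without NCD1).

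*Lgals3bp*, a secreted glycoprotein, had 41.8, 35.6 and 26.5 CPM in NCD and 38.3, 32.6 and 35.0 CPM in HFD. Its log2 fold change was 0.021, and it was -0.13 without NCD3 and 0.17 without NCD1. *Xaf1*, a promoter of apoptosis, was at 0.30 (0.04 without HFD3) and *Ifi35* at 0.097 (-0.074 without HFD1). *Ifi44*, below the filter, had 25, 11 and 6 counts in NCD and 6, 10 and 13 counts in HFD.

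The spread within groups was wide for these genes. The median SD within groups of log2 CPM was 0.43 for the 37 members against 0.314 for all genes tested, without matching on expression level. Averaged over the members, the NCD samples deviated from the mean of the 6 samples by 0.22 (NCD1), -0.35 (NCD2) and -0.20 (NCD3) on the log2 scale. The HFD samples deviated by 0.14 (HFD1), -0.11 (HFD2) and 0.31 (HFD3). NCD1 thus exceeded HFD1 and HFD2, and the groups overlapped.

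HFD3 held the highest of the 6 values in 16 of the 37 members, NCD1 in 10, HFD1 in 8, NCD3 in 2, HFD2 in 1 and NCD2 in 0. NCD2 held the lowest value in 16 members and NCD3 in 8. The share for HFD3 was 43.2%, against 25% over all genes tested, and that for HFD1 was 21.6% against 8.23%. NCD1 was highest in 27% of the members and 26.7% of all genes. NCD2 was lowest in 43.2% of the members against 9.98% of all genes, and NCD3 in 21.6% against 17.4%. Members of a locus or family can share reads and regulation and are not independent of each other.

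**Figure D4:**
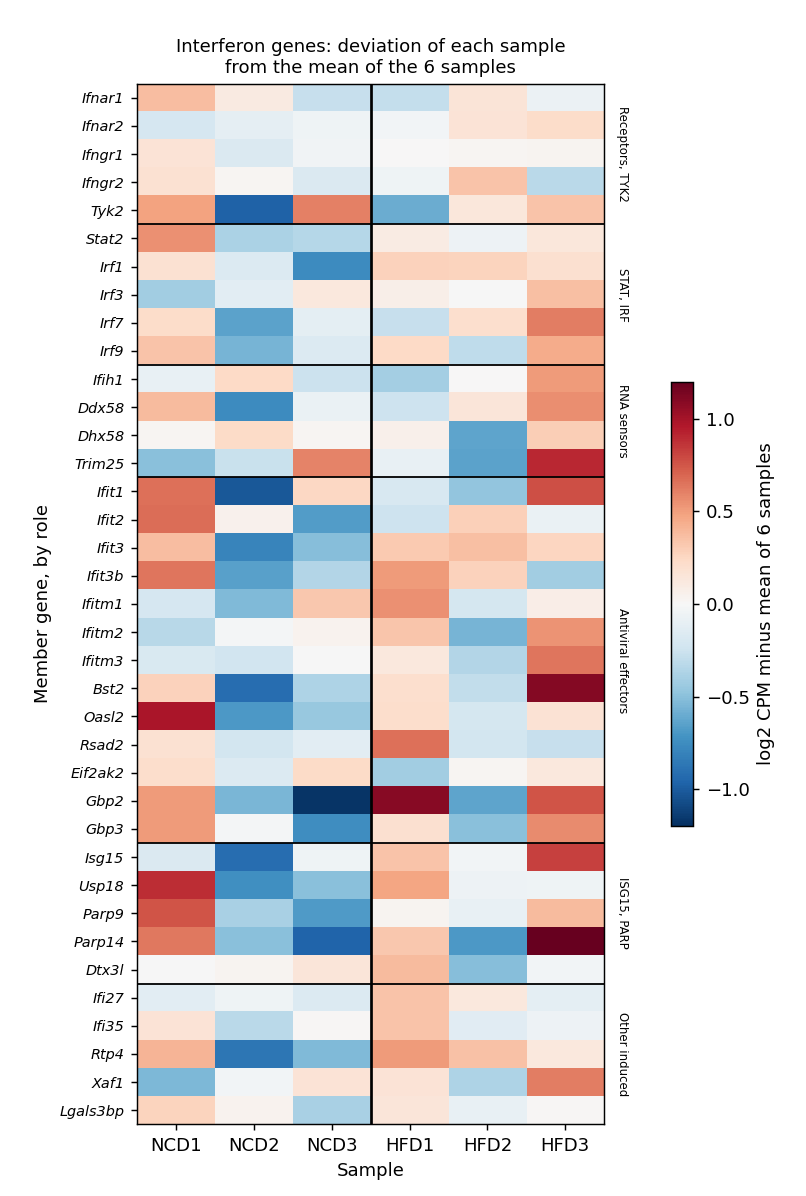
Deviation of each sample's log2 CPM from the mean of the 6 samples for the 37 members tested, grouped by role, with red above and blue below the mean and the colour scale ending at 1.2 either way. NCD1 and HFD3 are red and NCD2 is blue in most rows, and HFD2 is blue in many effector rows.

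The members with the ISRE core in their window ordered the samples in the same way as those without it. For the 14 tested, the mean deviation was 0.25, -0.46 and -0.25 in NCD1 to NCD3 and 0.18, -0.16 and 0.44 in HFD1 to HFD3. For the 17 tested without the core, it was 0.13, -0.26 and -0.066 in NCD and 0.048, -0.054 and 0.20 in HFD. With the core, the median log2 fold change was 0.22, where 12 estimates were above 0 and 2 below. Without it the median was 0.097, with 11 above, 5 below and *Ifngr2* at 0.00. The 5 receptor and TYK2 members, with a median of 0.00, were all among those without the core. The near copies *Ifit3* and *Ifit3b* were both among those with it. Whether the core has a part in the difference was not tested. The medians lay close together without HFD3, at 0.048 with the core (9 above and 5 below) and 0.04 without it, and without NCD1 they were 0.43 and 0.17.

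The wider pathway was read from 150 further genes, of which 101 were tested. None was called by edgeR with Benjamini-Hochberg adjustment or by DESeq2, and 6 had an unadjusted p under 0.05 by edgeR, all with estimates above 0. That is 6 of 101, where 1.21% of all genes tested were higher in HFD at that level. The list was chosen with earlier results of these data known, so the difference in share is no test. In all, 64 estimates were above 0 and 37 below, with a median log2 fold change of 0.13. Without HFD3, the count of 6 became 1 (*Ifi30*) and the median became -0.018, and without NCD2 the count was 3.

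Interferon genes themselves were close to undetected. Of 21 listed, 19 had 0 counts in every sample, *Ifnb1* among them, which allows up to 0.181 CPM in NCD1 and 0.564 CPM in HFD3. *Ifng* had 11, 0 and 4 counts in NCD and 2, 11 and 0 counts in HFD, and *Ifnk* had 1 count in NCD2 and 1 in HFD1.

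The signalling kinases differed little between the diets. *Jak1* had a log2 fold change of -0.065 (SE 0.200) and *Jak2* of 0.037 (SE 0.230), and over 11 signalling genes 7 estimates were above 0 and 4 below. Among 11 tested genes of the routes that start interferon production, 3 estimates were above 0 and 8 below, with a median of -0.18.

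The negative regulators, 12 of 12 tested, held 6 estimates above 0 and 6 below. *Socs3*, a feedback inhibitor of Janus kinases that leptin signalling also induces, had 3.91, 5.60 and 3.31 CPM in NCD and 9.07, 6.01 and 12.4 CPM in HFD. All HFD samples lay above all NCD samples, by a narrow margin in HFD2. The log2 fold change was 1.08 (SE 0.366), with an unadjusted p of 0.0118 and an adjusted p of 0.999 by edgeR's quasi-likelihood test. *Rnf125*, a ubiquitin ligase that marks RIG-I for degradation, had 2.53, 3.56 and 3.16 CPM in NCD and 1.37, 2.46 and 1.13 CPM in HFD. Its log2 fold change was -0.84 (SE 0.467), and it was -1.28 without HFD2 and -0.66 without HFD3.

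Among other induced genes, 44 of 66 were tested, with 29 estimates above 0, 15 below and a median of 0.087. *Ifi30*, a lysosomal thiol reductase of antigen processing, had 3.19, 3.87 and 3.01 CPM in NCD and 5.84, 6.11 and 6.02 CPM in HFD. *Herc6*, a ligase for ISG15, had 9.09, 5.29 and 8.43 CPM in NCD and 9.69, 15.1 and 14.5 CPM in HFD. The groups did not overlap for either gene, with log2 fold changes of 0.83 (SE 0.339) and 0.78 (SE 0.308). *Slfn2* had 2.11, 1.12 and 1.204 CPM in NCD and 2.24, 2.66 and 3.20 CPM in HFD. The Mx genes were scarce, with *Mx1* at 2, 0 and 0 counts in NCD and 0, 6 and 5 counts in HFD. *Mx2* had a log2 fold change of 0.91 (SE 0.664), and its groups overlapped. Without HFD3, its highest sample, it was at 0.15.

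In the list of interferon gamma-induced GTPases and antigen presentation genes, 23 of 26 were tested, with 19 estimates above 0, 4 below and a median of 0.25. *Nlrc5*, the activator of MHC class I genes, had 2.35, 0.407 and 1.05 CPM in NCD and 2.98, 2.46 and 6.77 CPM in HFD. *B2m*, the light chain of MHC class I, had 215, 238 and 229 CPM in NCD and 291, 287 and 362 CPM in HFD. In both, every HFD sample exceeded every NCD sample, with HFD3 the highest. The log2 fold changes were 1.56 (SE 0.619) for *Nlrc5* and 0.46 (SE 0.204) for *B2m*, with unadjusted p-values of 0.0262 and 0.0418 by edgeR. *Psmb8*, a catalytic subunit of the immunoproteasome, had 14.9, 9.98 and 8.43 CPM in NCD and 19.5, 13.2 and 20.9 CPM in HFD, with NCD1 above HFD2 and a log2 fold change of 0.67 (SE 0.291). Without HFD3, the values were 1.02 for *Nlrc5*, 0.35 for *B2m* and 0.54 for *Psmb8*. Without NCD1, *Nlrc5* was at 2.475 and *Psmb8* at 0.93.

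Marker genes of cell types were followed in the same samples. Among the ARC neuron markers, 11 of 15 estimates were above 0, with a median log2 fold change of 0.19. Their summed level was 1769, 2642 and 1958 CPM in NCD and 2351, 2227 and 2658 CPM in HFD, highest in HFD3. *Cartpt* and *Tac2* had estimates of 0.74 and 0.60 with unadjusted p-values of 0.0116 and 0.0422 by edgeR. These were the 2 of 15 under 0.05, where 2.3% of all genes tested were. The other 4 estimates lay below 0, down to -0.41, and 0 of the 15 were called once p-values were adjusted. Other lists also held markers at an unadjusted p under 0.05 by edgeR. They were 3 of 13 endothelial, 2 of 17 microglia, 2 of 10 tanycyte and ependymal, and 2 of 9 mural cell markers. General neuronal markers (10 of 10, *Snap25*) had 6 estimates above 0 and a median of 0.044, and astrocyte markers (10 of 10, *Aldoc*) had 6 above 0 and a median of 0.061.

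All 17 microglia markers were tested, with 12 estimates above 0 and a median log2 fold change of 0.19. Their summed level was 522, 544 and 442 CPM in NCD and 569, 579 and 572 CPM in HFD, so that the groups did not overlap. This sum was not tested. Gene by gene, 5 of the 17 estimates were below 0. The groups did not overlap in 3 of 17 markers, all with HFD above, against 6.47% of all genes tested. *C1qb* was the most abundant of them. NCD1 was not high in this list, unlike in the members.

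Fibroblast markers (6 of 6 tested, *Dcn* the most abundant) summed to 130, 97.9 and 87.4 CPM in NCD and 88.6, 77.6 and 163 CPM in HFD. They were highest in HFD3 and NCD1, the samples in which most members were highest. These samples also held the highest value in 25% and 26.7% of all genes tested. The order of the other samples was not the same. The mean deviation of the fibroblast markers was 0 in NCD2 and -0.29 in HFD1, against -0.35 and 0.14 for the members. In HFD2 and NCD3 both lists were below 0. Haemoglobin and other red blood cell genes (5 of 5, *Hba-a2*) were highest in NCD2 and lowest in NCD1 and HFD3, with 782, 2488 and 1966 CPM in NCD and 1687, 1156 and 823 CPM in HFD. Markers of border macrophages, 0 of 7 tested, summed to 3.25, 5.80 and 3.31 CPM in NCD and 5.22, 3.65 and 12.98 CPM in HFD, with *Pf4* the most abundant.

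T and natural killer cell markers, 1 of 8 tested, summed to 4.03, 9.67 and 6.62 CPM in NCD and 9.197, 5.72 and 7.53 CPM in HFD, with *Trac* the most abundant. The defining marker *Cd3e* had 2 counts in NCD2 and 0 in the other 5 samples. Endothelial markers (13 of 13, *Itm2a*) summed to 373, 379 and 356 CPM in NCD and 394, 413 and 354 CPM in HFD. Mural cell markers (9 of 9, *Vtn*) had 0 estimates above 0 and summed to 303, 294 and 229 CPM in NCD and 249, 276 and 239 CPM in HFD. Oligodendrocyte markers (10 of 10, *Mbp*) had 8 estimates below 0, and summed to 3495, 4985 and 3451 CPM in NCD and 3032, 4568 and 3653 CPM in HFD.

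Tanycyte and ependymal markers (10 of 10, *Rarres2*) had 8 estimates above 0 and a median of 0.26, and summed to 284, 368 and 464 CPM in NCD and 525, 313 and 515 CPM in HFD. They were high in HFD1 and HFD3 and low in HFD2, as were *Ifitm2* and *Ifitm3*. Markers of the neighbouring magnocellular and paraventricular neurons (6 of 6, *Avp*) summed to 2960, 5907 and 2641 CPM in NCD and 1431, 1497 and 1350 CPM in HFD, a sum that *Avp* and *Oxt* carried. *Avp* (log2 fold change -1.71, unadjusted p 0.000192 by edgeR), *Oxt* (-0.87, p 0.0091) and *Sim1* (-0.60, p 0.0629) lay lower in every HFD sample, with adjusted p-values of 0.194, 0.999 and 0.999 by edgeR. *Trh* lay higher in every HFD sample (0.51, unadjusted p 0.0374 and adjusted p 0.999 by edgeR), and *Otp* and *Crh* overlapped. With log2 total count as a covariate, the members' median log2 fold change was 0.22, with 28 estimates above 0 and 9 below. The part of any of these cells or of the extent of the cut tissue in the values of the interferon genes was not tested.

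**Figure D5:**
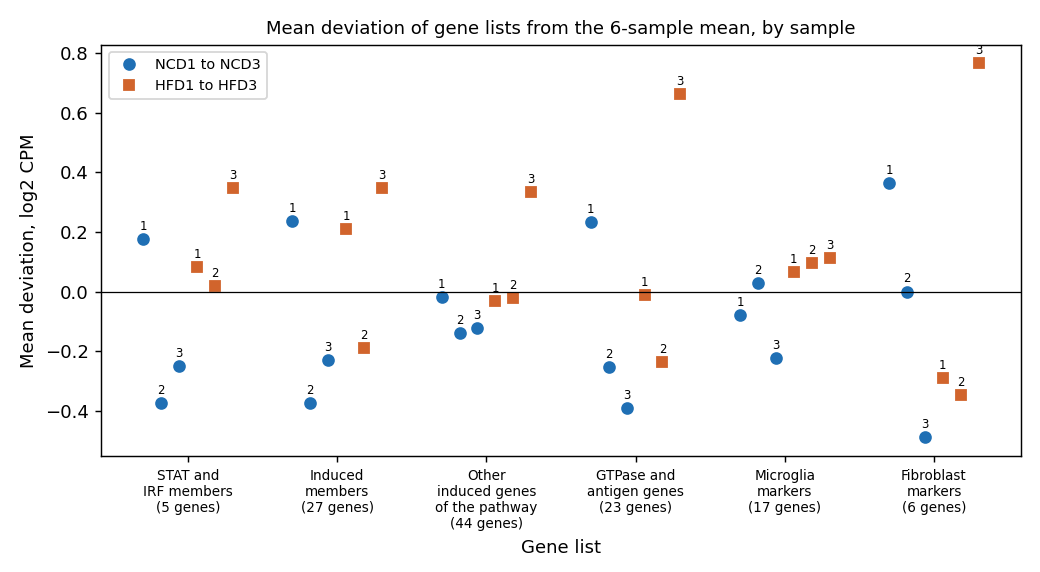
Mean deviation of log2 CPM from the mean of the 6 samples for 6 gene lists, with NCD samples as circles, HFD samples as squares and the replicate number above each point. NCD1 and HFD3 are the highest samples for the STAT and IRF members, the induced members, and the GTPase and fibroblast lists, while the microglia markers are lowest in NCD3 and highest in the HFD samples.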

How the data were processed

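According to the study's methods, the authors filtered reads against ribosomal sequence with bowtie2, used HISAT2 for alignment, and took gene values from StringTie and RSEM. The submitters' processing notes name the genome build mm10. The deposited table holds whole read counts per gene and sample that the authors did not normalize, and FPKM values that the authors scaled to transcript length and mapped reads. The strand setting of the counting is not given in the sources used here. The table also holds the authors' mean FPKM per group, which is not used here, and the authors' log2 fold change, p-value and FDR of their own comparison, which were not used.

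Identifiers were matched to GENCODE M21 (GRCm38), where 22267 of 22322 had a symbol and 55 did not. Counts were filtered with filterByExpr (14188 genes left), normalized with TMM and tested two-sided with edgeR 4.0.16 (glmQLFit and glmQLFTest, diet only), with Benjamini-Hochberg adjustment over all genes tested and a threshold of 0.05. CPM values are TMM-normalized, and log2 CPM used a prior count of 2. Intervals come from the fitted SE. The alternatives used DESeq2 1.42.0 and limma 3.58.1 with R 4.3.3. Promoter and transcript sequences were searched with Python 3.11.15. The fitting was tested on simulated counts.

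The rule for the members uses their symbols and no measured value, but the members and lists were chosen with earlier results of these data known. Values were given for all receptor, STAT and IRF members, for the 6 highest in FPKM, the 6 with the largest change, and any without overlap or with p under 0.05. Other pathway genes were named at p under 0.05, or without overlap and over 1.5-fold, and *Jak1*, *Jak2*, *Mx1*, *Mx2*, *Ifnb1* and *Ifng* always. A further gene of this rule is not reported here. *Ifnk*, *Dcn* and other marker genes were named after their values were seen. Two-sided exact permutation tests of 3 against 3 samples cannot give a p below 0.1.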

Additional observations from a re-analysis of the deposited data

How the results depend on the processing

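Over 17 alternatives, 0 members and 0 other pathway genes were called at the adjusted threshold in each, and the members' median log2 fold change stayed above 0, from 0.041 (without HFD3) to 0.29 (without NCD1). Leaving out 1 sample each moved that median between 0.041 and 0.291, the estimates above 0 between 22 and 33, and the members at an unadjusted p under 0.05 (0 with all samples) between 0 and 5. The 5 without NCD1 were *Irf1*, *Ifit3*, *Bst2*, *Gbp2* and *Rtp4*, and without HFD2 there were 3 (*Ifitm3*, *Bst2* and *Gbp2*). It was 5 with NCD1 and HFD3 both left out, an alternative chosen after seeing the data (median 0.275). It was 3 with log2 total count as a covariate and 1 (*Rtp4*) with log2(FPKM + 0.1). With the replicate number as a block it was 1 (*Ifit3*, log2 fold change 0.62, unadjusted p 0.0161, adjusted p 0.995 by edgeR). The deviations of same-numbered samples correlated at -0.0116, 0.113 and 0.369, so the numbers were not taken to pair the samples.

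Other pathway genes at p under 0.05 numbered 6, 10 with the covariate, and 1 (without HFD3) to 9 with 1 sample left out, where their median ran from -0.018 to 0.172. Over all genes, calls at the adjusted threshold numbered 8, with 19 by DESeq2, 15 with every gene of at least 1 count, 5 with limma on log2(FPKM + 1), 5 on log2(FPKM + 0.1), 17 with the block, 15 with the covariate, and 1 to 16 with 1 sample left out. Genes at p under 0.05 and over 1.5-fold numbered 270, with 427 for genes of at least 1 count, 179 for a mean of at least 50 counts, and 195 to 982 with 1 sample left out. The causes were not tested. Under RLE factors and library totals alone, 29 and 28 members were above 0. The low counts of *Isg15*, *Dhx58*, *Oas1a* and *Ifi44* limit what can be detected for them.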
